A study of Mus musculus with 2 samples.

Results

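The 10 genes of a cross-talk between uterine stroma and epithelium, namely Ptch1, Smo, Gli1, Gli2, Nr2f2, Hand2, Fgf1, Fgf2, Fgf7 and Fgf10, were followed on 2 Affymetrix Mouse Genome 430A 2.0 arrays. Every probe set whose platform annotation gives a single gene symbol, and that symbol among these, was taken, which gave 16 of 20380 such probe sets for 10 of 12393 genes. The arrays carried RNA of uterine stromal cells released by enzymatic digestion of the horns on day 5 of pregnancy. A conditional knockout array and a floxed control array, 1 of each, were each made from cells pooled over 3 animals. The labels disagree about the knockout, since Hif1 stands in the titles and Hif2 alpha-null against Hif2 alpha-intact in the genotype field, while the note on breeding has Hif1 floxed mice crossed with PRcre mice to remove Rac1. The first array is therefore called knockout-labelled. PRcre drives recombination from the progesterone receptor locus, so uterine cells that never expressed that receptor, nor came from cells that did, keep the floxed gene. The target genes gave no depletion to the noise floor at their brightest probe sets. Epas1, which encodes Hif2 alpha, had a log2 ratio of 0.39 there, Hif1a 1.10 and Rac1 -0.46. The next probe sets of Hif1a gave 1.38 and 0.52, so its 2 brightest were past 2-fold higher. The next probe set of Rac1 had signals of 332 on the knockout-labelled array and 664 on the control array, just past 2-fold lower. Hif1a and Rac1 each had 1 more probe set, at the floor on both arrays. Whether these probes lie in deleted exons was not analysed here.

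Under progesterone, the luminal epithelium secretes Indian hedgehog, which binds the receptor Ptch1 on stromal cells and so frees the transducer Smo to switch on the Gli transcription factors. Ptch1 and Gli1 are themselves classic targets of the pathway, and in the uterus Nr2f2, the nuclear receptor COUP-TFII, is a stromal gene that acts downstream of it. Hand2, a basic helix-loop-helix factor of the stroma, restrains the stromal production of fibroblast growth factors such as Fgf1 and Fgf2, which signal to receptors on the epithelium and drive its proliferation before implantation.

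The stretches of DNA just upstream of Nr2f2, Hand2, Fgf7 and Fgf10 are shown because these genes follow one another in the stromal relay and because the annotated gene start and the listed transcription start coincide. They are the 250 bases before the start in RefSeq, build GRCm38.p6, 5′ to 3′ on the strand of the gene, with motif matches in capitals. The windows are chr7:70366747-70366996 on the minus strand for Nr2f2, chr8:57320733-57320982 on the plus strand for Hand2, chr2:126034408-126034657 on the plus strand for Fgf7, and chr13:118714449-118714698 on the plus strand for Fgf10.
Nr2f2: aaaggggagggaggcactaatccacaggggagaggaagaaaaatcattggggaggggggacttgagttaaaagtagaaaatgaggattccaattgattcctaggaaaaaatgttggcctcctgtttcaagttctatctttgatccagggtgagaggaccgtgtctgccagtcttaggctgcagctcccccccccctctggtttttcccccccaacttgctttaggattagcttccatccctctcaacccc
Hand2: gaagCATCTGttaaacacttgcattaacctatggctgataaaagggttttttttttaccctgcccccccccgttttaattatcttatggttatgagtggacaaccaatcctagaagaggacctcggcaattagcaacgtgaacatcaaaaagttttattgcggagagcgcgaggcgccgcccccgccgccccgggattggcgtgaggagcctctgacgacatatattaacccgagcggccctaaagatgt
Fgf7: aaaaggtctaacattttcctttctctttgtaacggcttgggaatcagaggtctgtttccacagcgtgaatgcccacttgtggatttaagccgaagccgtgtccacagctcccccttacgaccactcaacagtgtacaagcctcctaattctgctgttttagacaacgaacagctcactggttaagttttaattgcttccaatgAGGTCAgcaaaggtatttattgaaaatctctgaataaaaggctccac
Fgf10: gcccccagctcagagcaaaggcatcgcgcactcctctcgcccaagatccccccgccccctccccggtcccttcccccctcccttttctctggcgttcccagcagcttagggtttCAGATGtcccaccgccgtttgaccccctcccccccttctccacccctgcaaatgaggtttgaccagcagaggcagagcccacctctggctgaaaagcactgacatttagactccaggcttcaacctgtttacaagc

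In all, 3 motifs were looked for on both strands in windows of 300 bases that run 50 bases past the start, for the 8 members whose promoter could be matched, that is, all but Gli1 and Fgf1. The core of the Gli motif, CCACCCA, was in none of these 8 windows and in 9.30% of 32851 promoters of the same length. The half-site of nuclear receptors, AGGTCA, was found for Fgf7, where it begins 47 bases before the start, and in 16.3% of all promoters. An E-box of the form CATCTG, which Hand2 can bind with an E protein partner, was found for Hand2, 246 bases before the start, and on the opposite strand for Fgf10, 136 bases before it, against 17.2% of all promoters. The motifs do not overlap one another. Such a match describes letters only. The windows also differed in base composition: Ptch1 had a GC content of 76.3% with 47 CpG dinucleotides, and Nr2f2 had 49.7% with 2, where the median promoter had 52.7% and 7.

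The hedgehog members and Nr2f2 were measured on both arrays, Hand2 lay just over the noise floor, and no FGF member rose above it. The floor is a MAS5 signal of 19.7, the 40th percentile of both arrays pooled, and a probe set at the floor on both arrays has no ratio. Of all 20380 probe sets with 1 symbol, 7096 were at the floor on both arrays. Of the 16 member probe sets, 10 were above the floor on both arrays and 6 were at the floor on both. Of these 10, 1 was lower by 2-fold or more on the knockout-labelled array and 0 were higher by as much, where 13.9% of 13284 compared probe sets were lower and 6.84% higher by that rule. By any amount, 5 were higher and 5 lower. Their median log2 ratio was 0.02, against -0.11 over all compared probe sets. Taking the brightest probe set for each gene, 0 of 6 members were past 2-fold in either direction, where 13.0% of 8593 genes were lower and 6.21% higher by that rule. With 1 array a group no test was possible and no p-value is given, and every value describes these 2 arrays. The scaling mattered for the count: after each array was centred on its median, Ptch1 1428853_at (1.06) and Nr2f2 1416160_at (1.09) were past 2-fold. With that centring 13.6% of 13290 compared probe sets were higher by 2-fold or more, against 6.84% as deposited. Higher genes made up 63.1% of all genes past 2-fold, against 32.3% as deposited.

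**Figure D1:**
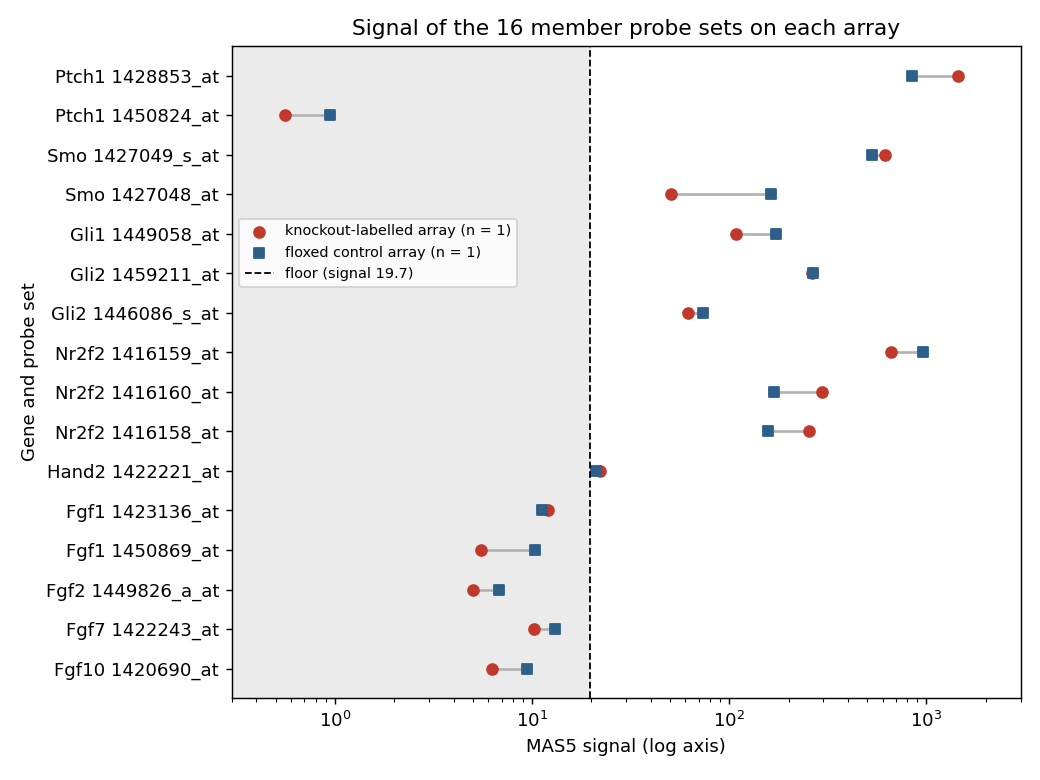
MAS5 signal (log axis) of the 16 member probe sets on the knockout-labelled array (circles) and the floxed control array (squares), 1 array each; the shaded area lies under the floor of 19.7, and the circle of Gli2 1459211_at is hidden under its square. The 5 FGF probe sets and 1 probe set of Ptch1 sit under the floor on both arrays.

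Ptch1, the hedgehog receptor and a target of its own pathway, had a signal of 1454 on the knockout-labelled array and 847 on the control array at probe set 1428853_at. This is a log2 ratio of 0.78, or 1.72-fold higher, and 87.7% of all compared probe sets had a lower ratio. Its other probe set, 1450824_at, had signals of 0.560 and 0.944 on the knockout-labelled and control arrays and so was at the floor on both. The direction for Ptch1 thus rests on 1 probe set. The only error that could be had is how far the 2 brightest probe sets of the same gene disagree, an SD of 0.64 for a log2 ratio over 2660 genes, which leaves out the spread between animals, pools and arrays. The ratio of Ptch1 was 1.22 times that SD.

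Smo, the membrane protein that Ptch1 holds in check, gave different answers at its 2 probe sets. At 1427048_at the signal was 50.6 on the knockout-labelled array and 163 on the control array, a log2 ratio of -1.69, or 3.23-fold lower. At 1427049_s_at it was 618 on the knockout-labelled array and 529 on the control array, a log2 ratio of 0.22. The first was the single member probe set past 2-fold, and 3.41% of all compared probe sets had a lower ratio. The suffix _s_at marks a probe set that can match several transcripts. Both Smo probe sets were designed from the same source sequence, yet their ratios lay 1.92 apart, a wider gap than in 94.0% of the 1814 genes with 2 probe sets above the floor on both arrays. Taken as the median of its probe sets, Smo was at -0.73, against 0.22 at the brightest, so its direction was not settled.

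The Gli factors carry the hedgehog signal to the nucleus, Gli2 as the main activator downstream of Smo and Gli1 as an induced amplifier. Gli1 had a signal of 108 on the knockout-labelled array and 174 on the control array at its only probe set, a log2 ratio of -0.68 (1.60-fold lower), which is -1.06 in units of the probe set SD. Ptch1 and Gli1, both transcribed in response to the pathway, thus went opposite ways, and neither reached 2-fold. Gli2 had signals of 261 on the knockout-labelled array and 265 on the control array at 1459211_at (log2 ratio -0.02). At 1446086_s_at it had 61.7 on the knockout-labelled array and 73.3 on the control array (-0.25). The ratios of the pair lay 0.23 apart, a gap smaller than in most genes with 2 probe sets, whose median gap was 0.71. It was smaller in 18.5% of those genes.

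Nr2f2 had 3 probe sets, all designed from the same source sequence and all well above the floor. At 1416160_at its signal was 297 on the knockout-labelled array and 169.6 on the control array, a log2 ratio of 0.81. At 1416158_at it was 254 on the knockout-labelled array and 157 on the control array, a log2 ratio of 0.70. The brightest, 1416159_at, gave the opposite direction, with 661 on the knockout-labelled array and 957 on the control array, a log2 ratio of -0.54. The 3 ratios spanned 1.34, where the median span over 576 genes with 3 measured probe sets was 1.17 and 60.1% of them had a smaller one. Opposite signs were found in 68.9% of those genes, so the disagreement within Nr2f2 is of a common size on these arrays. The choice of probe set sets the direction for the gene, with -0.54 at the brightest and 0.70 as the median of the 3.

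**Figure D2:**
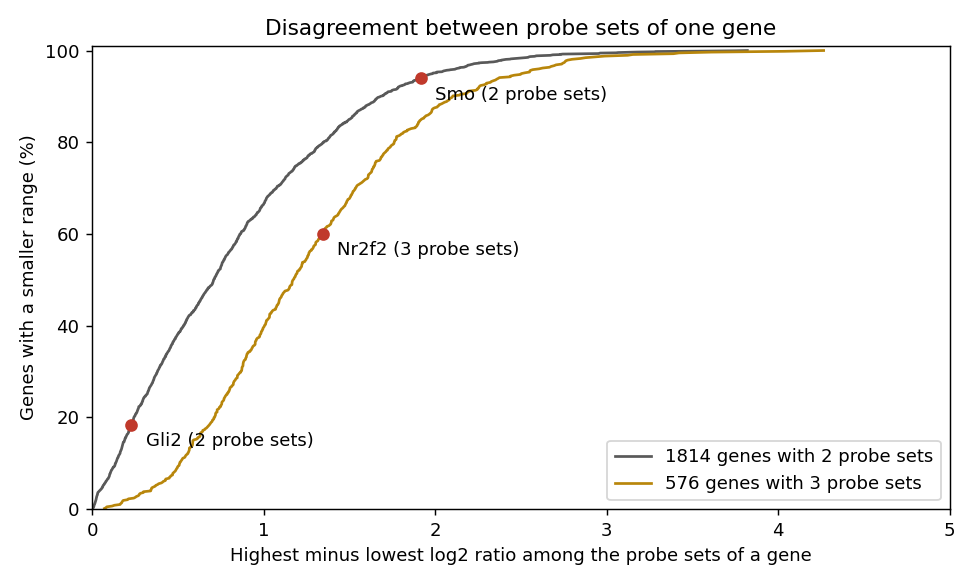
Cumulative share of genes (%) by the gap between the highest and the lowest log2 ratio of their probe sets, for genes with 2 (grey) or 3 (gold) probe sets above the floor on both arrays. Smo, with a gap of 1.92, lies above 94.0% of genes with 2 probe sets, Gli2 (0.23) lies low on that curve, and Nr2f2 (1.34) lies at 60.1% of genes with 3.

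Hand2 had a signal of 22.1 on the knockout-labelled array and 21.2 on the control array at its only probe set. Both values lie close to the floor of 19.7, and the log2 ratio of 0.06 (1.04-fold) says little at such a signal. With the floor at the 60th percentile Hand2 has no ratio.

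The FGF members are the ligands that the relay ends in. Fgf1 and Fgf2 are ligands of broad receptor use, and Fgf7 and Fgf10 are mesenchymal ligands of the epithelial form of Fgfr2. Fgf7 had a signal of 10.2 on the knockout-labelled array and 13.1 on the control array, and Fgf10 had 6.26 on the knockout-labelled array and 9.42 on the control array. Fgf2 had 5.02 on the knockout-labelled array and 6.84 on the control array. The probe sets of Fgf1 had 12.1 and 5.51 on the knockout-labelled array, against 11.2 and 10.3 on the control array. All 5 probe sets were under the floor on both arrays, so no direction can be given for any of the 4 ligands. A probe set at the floor does not show that the gene is silent.

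**Figure D3:**
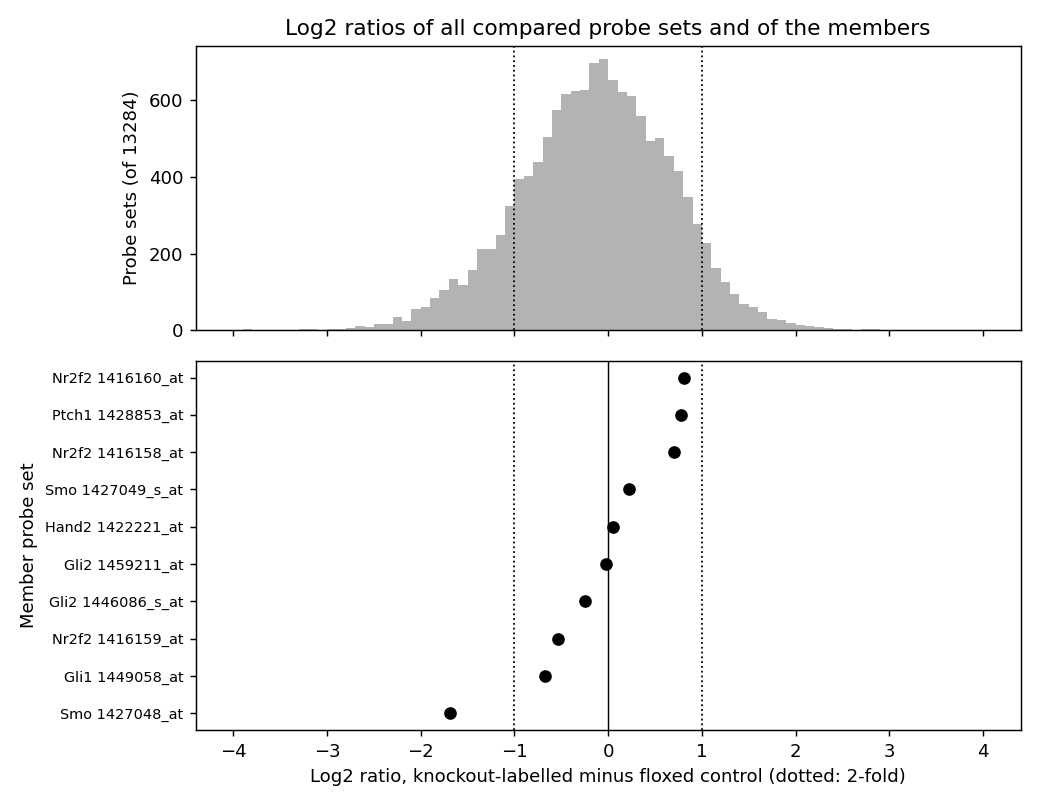
Top, distribution of the log2 ratio (knockout-labelled minus floxed control) over 13284 compared probe sets; bottom, the 10 member probe sets above the floor, each point 1 probe set, with dotted lines at 2-fold. The members spread from -1.69 (Smo 1427048_at) to 0.81 (Nr2f2 1416160_at), with 1 of 10 outside the dotted lines.

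Around the members, 126 other genes of the same pathways in 8 lists were described in the same way, of which 69 could be compared. Of these 69, 7 (10.1%) were lower and 6 (8.70%) higher by 2-fold or more, against 13.0% and 6.21% of all genes. Their median log2 ratio was -0.08, against -0.10 over all genes. Among hedgehog ligands and their release factors, 3 of 9 were compared and 0 were past 2-fold in either direction, with Dhh, a hedgehog ligand, at -0.33 and Scube1 at 0.52 (list median -0.33). Ihh itself, named after its value was seen, was at the floor, with 6.37 on the knockout-labelled array and 2.61 on the control array. Of 12 reception genes, 6 were compared and 0 were past 2-fold in either direction (median -0.23, but 0.55 over 9 genes with the floor at the 25th percentile and 0.05 after median centring), with Gas1, a hedgehog coreceptor, at 0.55 and the glypican Gpc3 at -0.44. Of 16 transduction genes, 10 were compared and 0 were past 2-fold in either direction (median -0.29), with the kinase Csnk1a1 at 0.82 and the ubiquitin ligase adaptor Spop at 0.34, although the next probe set of Spop gave -0.66.

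Among other hedgehog targets, 11 of 16 were compared, with 3 lower by 2-fold or more and 0 higher by as much (median -0.25). Over all genes 13.0% were lower and 6.21% higher by that rule. By any amount, 4 of the 11 were higher and 7 lower. Igfbp6, a binding protein of insulin-like growth factors, had a signal of 159 on the knockout-labelled array and 1006 on the control array, a log2 ratio of -2.66. Osr2, a zinc finger factor of mesenchyme, was at -1.27 and the growth factor Bmp4 at -1.22. Hhip, a hedgehog-binding target gene named after its values were seen, was at the floor on both arrays at both of its probe sets. Beside Ptch1 (0.78) and Gli1 (-0.68), targets of the pathway thus did not lie in 1 direction. With the loess trend removed, Ptch1 was at 0.56 and Gli1 at -0.52, both within the probe set SD of 0.64.

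Of 17 genes listed as relatives and partners of Nr2f2 and Hand2, 13 were compared, with 3 higher and 2 lower by 2-fold or more. Over all genes 6.21% were higher and 13.0% lower by that rule. The list median was 0.23, and 0.02 where each gene took the median of its probe sets. The E proteins, which pair with Hand2, went both ways. Tcf4 had a signal of 1597 on the knockout-labelled array and 655 on the control array (log2 ratio 1.29), and its 4 further measured probe sets gave 1.24, 0.55, 0.75 and 0.05. Tcf12 was at 1.20, with 0.04 at its next probe set, and Tcf3 was at -1.15. Nr2f6, a relative of Nr2f2, was at 1.11, but its next probe set was at -1.07. The fifth gene past 2-fold, named after its value was seen, was Gata2 at -1.09, with -0.04 at its next probe set.

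Among FGF ligands other than the members, 17 of 18 lay at the floor on each array, and Fgf13, an FGF that stays inside the cell, was at 0.17. The members Fgf1, Fgf2, Fgf7 and Fgf10 shared that state with nearly the whole ligand family on these arrays. Of 23 receptor, adaptor and heparan sulfate genes, 16 were compared, with 1 lower and 1 higher by 2-fold or more (median -0.21). Over all genes 13.0% were lower and 6.21% higher by that rule. Ext2, which builds heparan sulfate chains, was at -1.54, and Sdc4, a heparan sulfate proteoglycan, was at 1.00 with 0.05 at its next probe set. Of 17 genes that respond to FGF and other receptor kinases, 9 were compared (median 0.02). By 2-fold or more 2 were higher and 1 lower, beside the same shares of 6.21% and 13.0% over all genes. Spry2, a feedback inhibitor of receptor kinase signalling, had a signal of 736 on the knockout-labelled array and 288 on the control array (1.35). Its other probe set was at the floor on both arrays. Spred1, another such inhibitor, was at 1.13, with 0.61 and 1.10 at its other probe sets, and Myc was at -1.06.

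**Figure D4:**
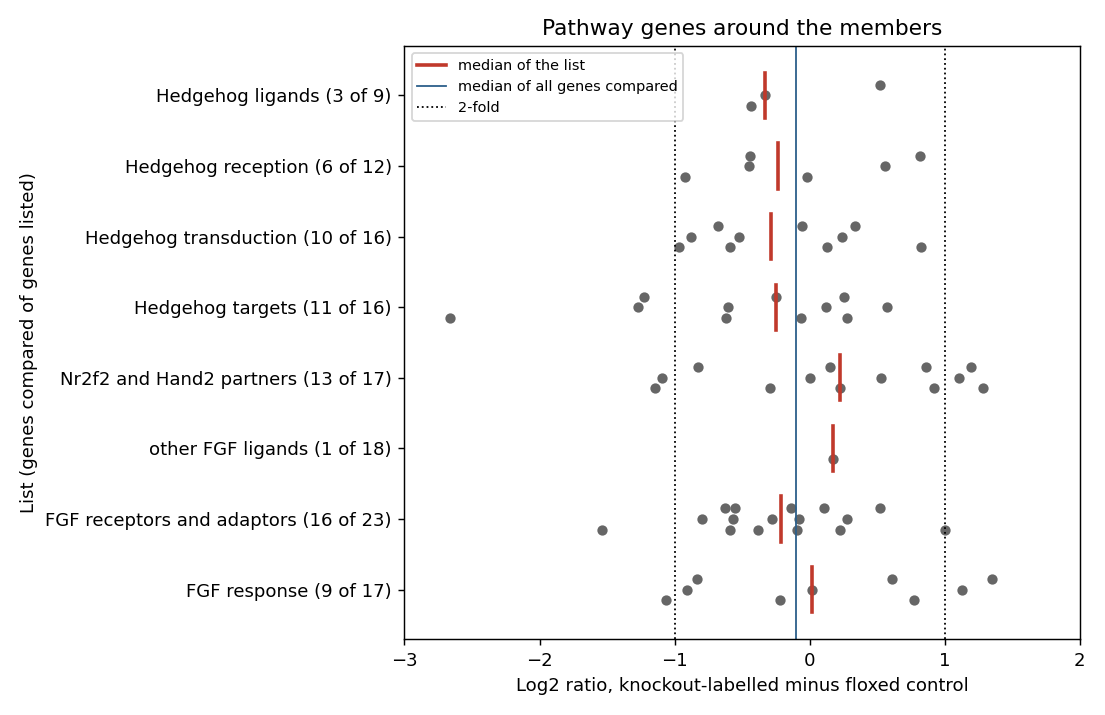
Log2 ratio (knockout-labelled minus floxed control) at the brightest probe set of each pathway gene, by list, with the list median (red bar), the median of all genes compared (blue line, -0.10) and dotted lines at 2-fold. Points lie on both sides of the blue line in every list but that of other FGF ligands, which has 1 point.

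The arrays also differed in RNA ends, in trend with signal and in markers of other cells. The 3′ to 5′ signal ratio of b-actin was 16.0 on the knockout-labelled array and 2.27 on the control array, and that of Gapdh was 7.25 on the knockout-labelled array and 1.49 on the control array. Where the probes of Smo, Nr2f2, Ptch1 and Gli1 lie along their transcripts was not analysed here, and the part of the RNA ends in their ratios was not tested. The ratio also moved with signal: compared probe sets in the brightest of 5 equal groups had a median log2 ratio of 0.22. That group held Ptch1 1428853_at (0.78), Smo 1427049_s_at (0.22) and Nr2f2 1416159_at (-0.54). Probe sets in the group of Gli1 and Smo 1427048_at had a median of -0.20. Of all genes compared, 13.0% were lower and 6.21% higher by 2-fold or more. Of 13 stromal markers, all compared, 2 were lower by 2-fold or more and 0 were higher by as much. The 2 were Hoxa11 (-1.85) and Des (-1.67), named after their values were seen. The stromal list, taken at the brightest probe sets, had a median of 0.22. Its summed signals were 45963 on the knockout-labelled array and 33605 on the control array. The next probe sets of Pdgfra, Pdgfrb and Col1a1 gave -1.70, -2.09 and -1.26, against -0.002, 0.46 and 0.59 at the brightest. Those of Col1a2 and Col3a1 gave 0.01 and 0.15. Vim gave 0.66, 0.26 and -0.58 at its 3 probe sets, and Pgr had a signal of 29.7 on the knockout-labelled array and 52.6 on the control array. Of 16 markers of epithelium and glands, 14 were compared, 4 of them lower and 1 higher by 2-fold or more (median -0.49). Their summed signals were 2292 on the knockout-labelled array and 3189 on the control array. Krt18 was at -2.20, Epcam at -0.51, Cdh1 at 0.58 and Krt8 at 0.64, and Krt19 was at the floor on both. For endothelium, 5 of 10 compared markers were lower and 0 higher by that rule (median -1.03), and Pecam1 was at -2.34. Their summed signals were 2045 on the knockout-labelled array and 3483 on the control array. For smooth muscle and pericytes, 2 of 10 were lower and 0 higher by that rule, with a median of -0.78 and 7 lower by any amount. The sums were 12361 on the knockout-labelled array and 12208 on the control array. Acta2 gave 6274 and Rgs5 3157 of the first sum, against 4246 and 2123 of the second. For myeloid cells, 5 of 10 were lower and 2 higher, with a median of -1.32 and sums of 3056 on the knockout-labelled array and 2877 on the control array. In those sums C1qb stands at its brightest probe set, with 1008 on the knockout-labelled array and 337 on the control array, while its dimmest had 48.3 on the knockout-labelled array and 310 on the control array. The part of these cells in the members' ratios was not tested. In such bulk RNA, fewer cells of a type and less RNA per cell cannot be told apart. Nor can a difference in RNA or labelling between the arrays be told apart from genotype. At the 5′ ends of b-actin and Gapdh the log2 ratios were -2.16 and -2.71, against 0.66 and -0.43 at the 3′ ends. The part of the RNA ends in the marker ratios was not tested.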

How the data were processed

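RNA of 2 pools was hybridised to 1 array each. The authors deposited 1 linear intensity for each probe set, a signal from the MAS5 method of Affymetrix Expression Console, version 1, per the submitters' processing notes. No source used here gives the target of the scaling. The mean signal after trimming 2% at either end is 150.1 on both arrays, and this scaling was kept.

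Of 22690 probe sets, 64 controls, 691 with several gene symbols and 1555 with none were set aside. The other 20380 took their names from the platform annotation, and symbols were updated through Entrez identifiers in a RefSeq table of GRCm38.p6. Signals were raised to the floor and put on a log2 scale, and the control value was subtracted from the knockout-labelled value. A list uses the probe set of each gene with the highest mean log2 signal. Called means at least 2-fold, with no test. Named were all members, up to 4 genes of a list past 2-fold or its 2 brightest, the genes the labels name as targets, and defining cell markers. The members and lists were chosen with earlier results of these data known. No gene is given as similar in pattern, since 2 arrays yield 1 ratio.

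The size rule was tested on simulated data. Such a test cannot supply the spread between arrays, which 1 array a group leaves unmeasured. Alternatives were quantile normalization, median centring, removal of a loess trend (span 0.4), floors at percentiles 25 and 60, no floor but a pseudocount of 4.70, the median over probe sets, omission of _s_at and _x_at probe sets, and rules of 1.5-fold and 3-fold. Python 3.11.15, pandas 2.3.3 and statsmodels 0.14.6 were used. The number of arrays limits the precision.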

Additional observations from a re-analysis of the deposited data

How the results depend on the processing

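No member probe set past 2-fold changed sign. Smo 1427048_at ran from -1.69 to -1.30 in log2 ratio over the settings, Ptch1 1428853_at from 0.56 to 1.06, Gli1 from -0.68 to -0.40, Nr2f2 1416160_at from 0.79 to 1.09 and Nr2f2 1416159_at from -0.69 to -0.26, while both Gli2 probe sets crossed 0. Of 10 member probe sets, 0 were higher past the rule as deposited, 2 after median centring and 3 by the 1.5-fold rule. The shares over all compared probe sets were 6.84%, 13.6% and 18.7%. Lower ones numbered 1 as deposited and 2 by the 1.5-fold rule, against 13.9% and 27.5% of all compared probe sets. Of 6 member genes, 0 were past 2-fold as deposited. After median centring 1 was higher, as were 1146 of all 8596 genes. Without _s_at and _x_at probe sets 1 was lower (Smo, at -1.69), as were 1273 of all 8275 genes. By the 1.5-fold rule 1 was higher and 1 lower, against 1592 and 2268 of all 8593 genes. Higher pathway genes, 6 of 69 as deposited, numbered 11 of 70 after median centring and 2 with the median over probe sets. They numbered 12 by the 1.5-fold rule and 0 by the 3-fold rule. Of 8593 genes, 534 were higher as deposited, 364 with the median over probe sets, and 1592 and 106 by the 1.5-fold and 3-fold rules. Lower pathway genes, 7 as deposited, numbered 4 after quantile normalization, 4 after loess and 2 after median centring. They numbered 20 by the 1.5-fold rule and 1 by the 3-fold rule. Over all genes, lower ones numbered 1119 of 8593 as deposited, 818 of 8587 after quantile normalization and 816 of 8593 after loess. They numbered 670 of 8596 after median centring, and 2268 and 330 of 8593 by the 1.5-fold and 3-fold rules. The median log2 ratio of all genes was -0.10 as deposited, 0.03 after quantile normalization and 0.16 after median centring, and higher genes made up 32.3%, 46.5% and 63.1% of the genes past 2-fold, with 45.2% after loess. With the floor at the 60th percentile the lists of hedgehog ligands and of other FGF ligands had no gene left. With the floor at the 25th percentile Fgf7 had a log2 ratio of -0.35 and Fgf1 0.11 at 1423136_at. The knockout-labelled array was at that lower floor for Fgf1 1450869_at (-0.60 or lower), Fgf10 (-0.47 or lower) and Fgf2 (control array barely above it). All these FGF signals lie under the main floor of 19.7, so no direction is read from them. The median of the hedgehog reception list was -0.23 as deposited, 0.55 with the floor at the 25th percentile, 0.10 with the pseudocount and 0.05 after median centring. No paired analysis was possible because each group has 1 array. Leaving out a replicate was not possible for the same reason.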
